A study of Mus musculus with 9 samples.

Results

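The 500 widest regions of accessible chromatin in tumor-specific CD8 T cells were described, out of 62963 regions found in 9 ATAC-seq libraries. Peaks of all 9 lists on chromosomes 1 to 19 and X were merged where they shared at least 1 base, and the regions with the largest distance from start to end were taken. Their widths ran from 1700 to 3970 bases, with a median of 1847 and a middle range of 1768 to 2003, and 134 were at least 2000 bases wide. The median over all regions was 461 bases. The regions were chosen by their width, so widths and all measures that follow from them are given as a description. The last region inside the limit lay in Pde4d (chr13:109902447-109904146, 1700 bases), and the first one outside lay in Cers6 (chr2:68861065-68862762, 1698 bases). The wide regions made up 0.794% of all regions and 2.69% of their bases, 962.7 kb in all. Merging added little to them: the width was a median of 1.03 times the longest single peak in any list, and over 1.5 times in 35 regions.

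ATAC-seq maps open DNA by the places where the Tn5 transposase can insert sequencing adapters. All libraries came from P14 CD8 T cells, which carry a transgenic receptor for the GP33 epitope of lymphocytic choriomeningitis virus (LCMV), bear a TCF-1-GFP reporter and were naive (CD44-, GFP+) when transferred. The hosts were C57BL/6 mice, labelled WT, that had received B16.F10 melanoma cells expressing the LCMV glycoprotein (B16.Gp) 8 days before the transfer. The lymph nodes that drain the tumor gave the donor cells, sorted as CD45.1+CD44+ CD8 T cells 4, 8 or 21 days after transfer, 50000 cells per library and 3 libraries per day. The groups come from the sample titles, since the tags for genotype and time point hold each other's values. Ages are not given, and no library of naive cells or of cells from tumor-free hosts was analysed here. Nothing in the labels tells if same-day libraries were made from different mice, so p-values measure only the spread between these lists. All cells carried 1 receptor, which limits them as a model of a mixed T cell response.

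The day 4 lists held 19499 to 22250 peaks on these chromosomes, the day 8 lists 47513 to 50835 and the day 21 lists 46492 to 51671. The lists hold no read totals. Their smallest local background, a stand-in for depth, was 2.14 to 3.38 tags. At regions called in every list, the median summit stood 10.7 to 11.2 times above that background on day 4, 26.6 to 28.6 times on day 8 and 24.4 to 27.0 times on day 21. All 5 CD8 T cell markers had regions on every day (9 to 11 in all on day 4, 22 to 26 on day 8, 21 to 25 on day 21). Regions at 5 B cell markers numbered 0 to 1 on day 4 and 7 to 9 later, and those at 4 endothelial and stromal markers 0 to 1 and 13 to 16. At 6 melanoma markers there were 4 to 6, 8 to 9 and 10 to 12 regions, with none at Tyr and Sox10 on any day, and at 4 myeloid markers 2 to 3, 8 to 10 and 10 to 11, with none at Lyz2. At 2 erythroid markers 1 to 2 regions were called in each list. No marker of any of these types held a wide region, and the part of other cells in the results was not tested.

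At most active promoters, chromatin is open over a short stretch just upstream of the start of transcription, between well-placed nucleosomes. Wider open stretches are known at CpG islands, promoters rich in unmethylated CG pairs that serve many constitutive genes, and where several start sites or genes on opposite strands share a promoter. T cell activation opens further regions, mostly enhancers inside and between genes, at effector and memory loci.

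The wide regions mostly held promoters, and most of these promoters were rich in CG pairs. RefSeq windows of 300 bases (GRCm38.p6, the assembly of mm10), from 250 bases before to 50 after a listed start site, are shown for 5 wide regions and for 1 T cell gene without one, each 5′ to 3′ on the gene's strand with every CG pair in capitals. The windows are those of Sp3, which encodes a transcription factor that binds GC boxes (chr2:72979232-72979531, minus strand), Tob1, an antiproliferative gene (chr11:94211204-94211503, plus strand), Dusp1, a phosphatase that switches off MAP kinases (chr17:26508423-26508722, minus strand), and Polr2a, the largest subunit of RNA polymerase II (chr11:69758584-69758883, minus strand). They are followed by Dock2, an activator of Rac needed for lymphocyte migration (chr11:34783856-34784155, minus strand), a wide region with few CG pairs, and by Cd3e, a chain of the T cell receptor complex whose promoter is in no wide region (chr9:45009562-45009861, minus strand).
Sp3: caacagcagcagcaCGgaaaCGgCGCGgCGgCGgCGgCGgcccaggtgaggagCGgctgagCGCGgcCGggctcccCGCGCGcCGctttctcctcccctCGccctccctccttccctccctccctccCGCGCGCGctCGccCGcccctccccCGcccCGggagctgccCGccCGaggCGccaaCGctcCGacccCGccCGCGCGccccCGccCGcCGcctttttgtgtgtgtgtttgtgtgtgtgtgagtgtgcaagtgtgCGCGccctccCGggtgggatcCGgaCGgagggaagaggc
Tob1: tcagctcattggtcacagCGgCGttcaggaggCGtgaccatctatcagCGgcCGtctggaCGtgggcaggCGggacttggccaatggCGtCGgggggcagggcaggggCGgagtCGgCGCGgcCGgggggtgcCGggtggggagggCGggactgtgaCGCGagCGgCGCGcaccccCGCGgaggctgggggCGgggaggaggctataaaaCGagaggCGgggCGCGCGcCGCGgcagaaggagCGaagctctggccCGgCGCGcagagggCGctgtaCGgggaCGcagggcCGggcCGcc
Dusp1: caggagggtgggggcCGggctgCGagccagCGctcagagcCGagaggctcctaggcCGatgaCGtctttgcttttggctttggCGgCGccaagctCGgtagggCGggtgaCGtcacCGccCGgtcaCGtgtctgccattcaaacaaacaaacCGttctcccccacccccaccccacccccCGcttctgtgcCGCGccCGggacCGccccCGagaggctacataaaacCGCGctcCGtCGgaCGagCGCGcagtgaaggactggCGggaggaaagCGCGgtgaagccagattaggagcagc
Polr2a: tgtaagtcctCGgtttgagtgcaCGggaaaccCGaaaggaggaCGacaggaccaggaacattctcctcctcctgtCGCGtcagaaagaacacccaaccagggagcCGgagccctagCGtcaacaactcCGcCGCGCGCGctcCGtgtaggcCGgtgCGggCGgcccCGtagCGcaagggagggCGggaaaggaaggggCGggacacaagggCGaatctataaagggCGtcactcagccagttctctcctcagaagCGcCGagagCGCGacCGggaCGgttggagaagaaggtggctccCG
Dock2: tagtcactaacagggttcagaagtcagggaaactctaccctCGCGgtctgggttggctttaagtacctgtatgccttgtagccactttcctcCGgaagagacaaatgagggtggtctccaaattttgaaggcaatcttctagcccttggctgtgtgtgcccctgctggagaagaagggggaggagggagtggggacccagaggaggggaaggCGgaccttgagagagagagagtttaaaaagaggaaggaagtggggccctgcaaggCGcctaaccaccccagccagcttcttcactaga
Cd3e: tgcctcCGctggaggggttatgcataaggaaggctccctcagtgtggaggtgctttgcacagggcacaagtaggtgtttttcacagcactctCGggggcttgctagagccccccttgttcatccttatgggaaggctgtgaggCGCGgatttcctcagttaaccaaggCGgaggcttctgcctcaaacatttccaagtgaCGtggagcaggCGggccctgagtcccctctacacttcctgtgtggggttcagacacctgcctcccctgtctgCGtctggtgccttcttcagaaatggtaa
The window of Sp3 shown held 42 CG pairs, that of Tob1 40, Dusp1 31 and Polr2a 30, against 5 at Dock2 and 8 at Cd3e. As a ratio of the CG pairs observed to those that the C and G content would give, Sp3 stood at 0.977, Tob1 at 1.02, Dusp1 at 0.921, Polr2a at 0.995, Dock2 at 0.234 and Cd3e at 0.333. A second listed window of Sp3 in the same wide region (chr2:72980397-72980696), which is not shown, held 29 CG pairs, a ratio of 0.870.

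Of the listed windows, 611 windows of 490 genes overlapped a wide region. Some genes have several overlapping windows, so windows are not independent. Their median count of CG pairs was 29, and the median ratio of observed to expected was 0.888. The 9205 windows in other regions called in all 9 lists had medians of 23 and 0.810, and all 32619 listed windows had 7 and 0.387. A ratio of at least 0.6, a usual mark of a CpG island, was met by 90.8% of windows in wide regions, 81.3% in the other regions and 36.0% of all. The G and C content had medians of 68.7%, 62.0% and 53.0% in that order. The windows in wide regions were thus further along the same scale on which promoters open in every list already stood apart from promoters in general.

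**Figure D1:**
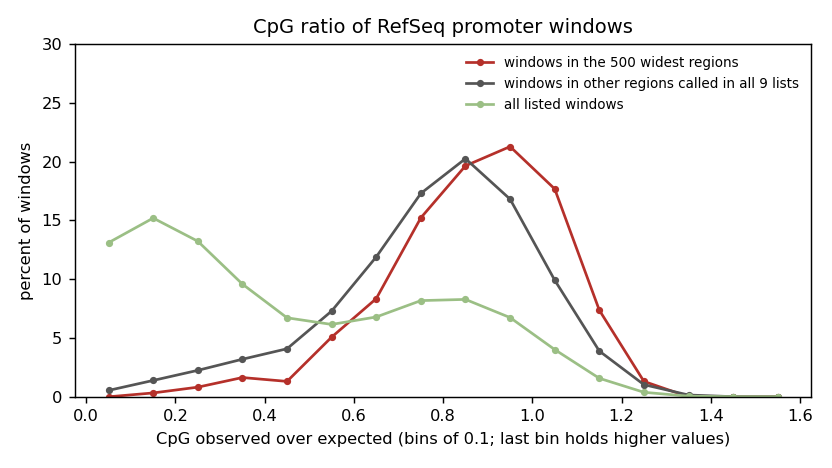
Share of 300-base RefSeq promoter windows (vertical axis, percent) by the ratio of observed to expected CG pairs (horizontal axis, bins of 0.1), for windows in the 500 widest regions, in other regions called in all 9 lists, and for all listed windows. The wide regions have their highest share, 21.3% of 611 windows, in the bin from 0.9 to 1.0.

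Short motifs searched on both strands, in the same 300 bases, differed in share between the sets. GGGCGG, the core of the GC box bound by Sp factors, was in 79.2% of windows in wide regions, 68.7% in the other regions called in all 9 lists and 35.9% of all windows. The window of Sp3 shown held 5 matches and its second window 2, and those of Tob1, Dusp1 and Polr2a 3 each. CCGGAAGT, a form of the ETS site common in CpG island promoters, was in 3.44% of windows in wide regions, 10.6% in the other regions and 3.92% of all. CCAAT was in 32.9%, 40.2% and 37.6%, TATAAA in 4.42%, 5.64% and 13.7%, and TGACTCA, the AP-1 site, in 1.80%, 2.77% and 5.22%. CACGTG, an E-box, was in 11.1%, 11.3% and 7.20%, and the palindromic consensus of NRF1, a factor of CpG island promoters, in 2.78%, 2.63% and 0.978%. Matches are counts of letters, CACGTG and the NRF1 consensus read the same on both strands, and none was read as a bound site.

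Near gene ends the wide regions were common: 395 of 500 lay within 1 kb of an end of a protein-coding gene, which is 79.0% (95% exact Clopper-Pearson interval 75.2 to 82.5, counting error only). The share was 52.1% of the 14632 other regions called in all 9 lists and 22.4% of all regions. A listed start site lay in 75.8% of wide regions, against 46.5% and 15.8%. Of the 379 wide regions with a start site, 104 held start sites on both strands (27.4%, against 18.1% in the other regions called in all 9 lists). A wide region overlapped 2 or more genes in 18.2% of cases, against 8.68%. The remaining wide regions lay inside a gene over 1 kb from its ends (78 regions) or outside genes over 1 kb from an end (27 regions). A wider region meets a given point more often, and how far width alone sets these shares was not tested.

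Around single start sites the wide regions ran further into the gene than away from it. In the 272 wide regions with the start site of 1 gene, the median region reached 751 bases upstream and 1146.5 bases downstream, and 193 of them (71.0%) held more bases downstream. In the 5528 other such regions called in all 9 lists the medians were 428 and 582 bases, and 67.9% held more bases downstream. The peaks of day 4 covered a median of 412 to 448 bases upstream of the start and 404 to 475 downstream in the wide regions. The day 8 peaks covered 632.5 to 648 upstream and 920.5 to 976 downstream, and the day 21 peaks 629 to 654 and 903.5 to 1028.5. The lists of days 8 and 21 were thus longer than those of day 4 on both sides, by more on the downstream side. In the other regions the medians went from 260 to 284 upstream on day 4 to 364 to 375 on day 8, and from 286 to 332 downstream to 495 to 505. The highest summit of a list lay within 250 bases of the start in 55.8% to 62.1% of wide regions, against 84.3% to 85.9% of the others, and on both it was downstream in about the same share (26.8% to 30.7% and 29.0% to 32.1%).

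**Figure D2:**
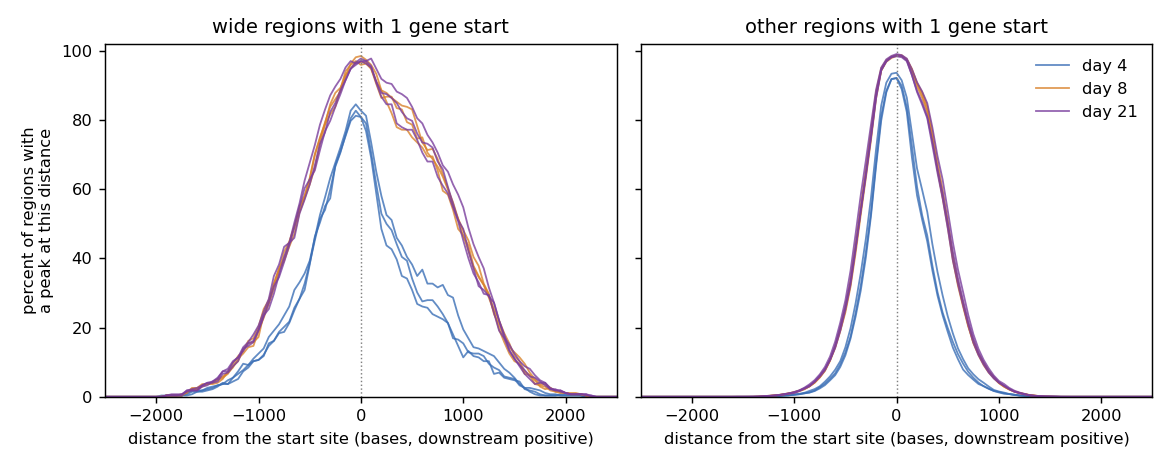
Share of regions (vertical axis, percent) with a peak at each distance from the start site (horizontal axis, bases, downstream positive), 1 line per list, for 272 wide regions (left) and 5528 other regions called in all 9 lists (right), all with 1 gene start. At 500 bases downstream, 30.9% to 38.2% of the wide regions were covered on day 4, 75% to 83.1% on day 8 and 77.2% to 83.8% on day 21.

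The widest regions of all were not typical of the set. The widest, chr14:19415698-19419667 (3970 bases), lay 114 kb from the nearest protein-coding gene, Gm2244. The next, chr17:39843047-39846927 (3881 bases), overlapped Rn18s-rs5, a pseudogene related to the RNA of the small ribosomal subunit, and was 1 peak in every list. The tenth, chr9:124422760-124425327 (2568 bases), held LOC108167694 and Gm20783. The sources used here do not tell how reads with several matching places were counted, and no list of problem regions was applied, so the values of such regions are uncertain. The others of the 10 widest were at known genes: Tsc22d2, a leucine zipper protein (3118 bases), Rreb1, a zinc finger factor of Ras signalling (2904), and Nr3c1, the glucocorticoid receptor (2870). They went on with Ust, a uronyl sulfotransferase (2672), Ncoa2, a nuclear receptor coactivator (2651), Sp3 (2638) and Usp9x, a deubiquitinase (2585). At Tsc22d2 the peaks covered 568, 450 and 478 bases in the day 4 lists, 2426, 1846 and 2379 on day 8 and 2514, 2147 and 2412 on day 21. At Sp3 they covered 1810, 1625 and 1746 bases, then 2438, 2629 and 2393, then 2468, 2417 and 2604. In neither gene did the day 4 lists overlap with those of the later days, and days 8 and 21 overlapped. The Rn18s-rs5 region instead had 3522 to 3842 bases covered on day 4, 3745 to 3775 on day 8 and 3713 to 3787 on day 21, with overlap of all days. The longest single peaks of any list were in the widest region (3912 bases) and in those of Rn18s-rs5 (3842) and Nr3c1 (2764).

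Nearly all wide regions were open from day 4 on. A peak was present in all 9 lists at 477 of 500 (95.4%, against 24.0% of all regions). Each of the other 23 was missing from day 4 lists alone: 14 were called in 8 lists, 4 in 7 and 5 in 6. The 5 regions without a peak in any day 4 list lay in Rai1 (chr11:60175257-60177165), at Macroh2a1, the gene of a histone variant (chr13:56134081-56135868), at Dock5 (chr14:67932621-67934374), at Shisa3 (chr5:67606939-67608671) and 20.7 kb from Gars (chr6:55015605-55017320). In the Shisa3 region the peaks covered 1241, 1301 and 1726 bases on day 8 and 1270, 1253 and 1602 on day 21, so it was wide as soon as it was called.

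The stretch of each wide region that peaks covered was longer on the later days. Its median was 909, 871 and 1058.5 bases in the day 4 lists, 1588, 1632 and 1652 on day 8, and 1639, 1627 and 1725.5 on day 21. In the other regions called in all 9 lists it was 483 to 545 bases, 779 to 800 and 785 to 828. All 3 day 8 lists covered more bases than all 3 day 4 lists at 468 of 500 wide regions, beside a background of 56.5% of all regions and 83.6% of those called in all 9 lists. At no wide region did all day 8 lists cover fewer (background 0.0492%). Day 21 lay above day 4 in this way at 479 wide regions (background 56.6%, and 85.6% of regions called in all 9 lists). It lay below at 0 (background 0.0381%). Both comparisons use the same day 4 lists, and since the width of the union came mostly from the later lists, the direction is partly set by how the regions were chosen. The ratio of mean covered bases, day 8 over day 4, had a median of 1.70 over the 495 wide regions with a day 4 peak, and 1.47 over the other regions called in all 9 lists. With each list held to its strongest 19499 peaks, as many as the shortest list has, these became 1.48 and 1.40. The 468 regions became 343, and the matching count over all regions was not made.

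Between days 8 and 21 the wide regions changed little in covered length. Day 21 over day 8 gave a median ratio of 1.02 for wide regions and 1.01 for the others. All day 21 lists lay above all day 8 lists at 60 wide regions (12%, background 8.69%, and 11.8% of regions called in all 9 lists). They lay below at 38 (7.60%, background 6.66%, and 6.91% of regions called in all 9 lists). These 2 counts moved with single lists. The 60 became 94 to 110 without day 8 list 2 or 3 or day 21 list 1 or 2. The 38 became 58 to 85 without day 8 list 1 or 2 or day 21 list 3, as fewer lists overlap less easily. Counts over all regions were not made without a list.

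**Figure D3:**
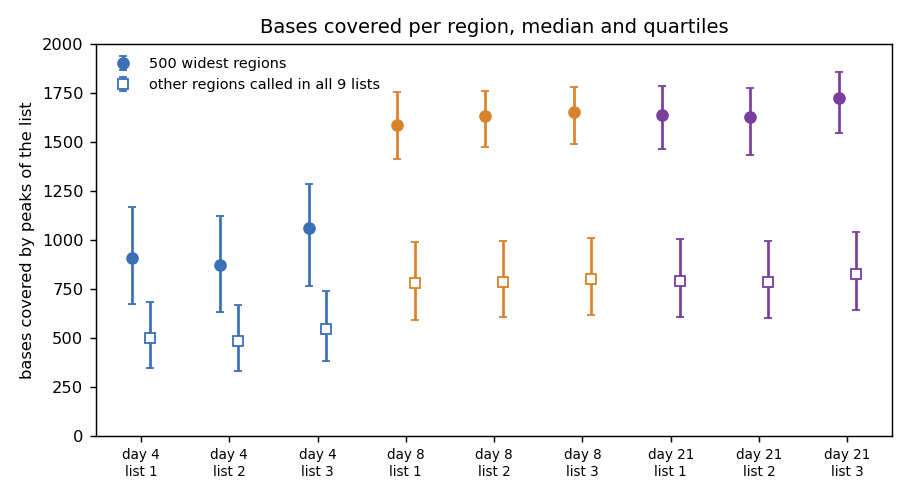
Bases of a region covered by peaks (vertical axis) in each of the 9 lists, as median (point) and quartiles (bar), for the 500 widest regions and the 14632 other regions called in all 9 lists. Medians of the wide regions are 871 to 1058.5 on day 4 and 1588 to 1725.5 later.

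Single regions ranged from no gain in length to a 14.8-fold one. Among regions with any day 4 peak, the largest day 8 to day 4 ratio was at the promoter of Rai1, a nuclear chromatin-binding protein (chr11:60104765-60106758). Its covered bases were 0, 0 and 295 on day 4, 1322, 1718 and 1316 on day 8, and 1315, 1656 and 1897 on day 21, a mean of 1452 ± 230 on day 8 (SD, 3 lists). Next came Satb1 with a ratio of 13.1, Sfmbt1, a polycomb-group protein (12.2), Prkce, a protein kinase C (11.6), and Rere, a nuclear corepressor (11). Each of these had at least 1 day 4 list without a peak, so the ratios rest on short day 4 peaks. At the other end the classical MHC class I gene H2-K1 (chr17:34000191-34002298) was fully open from the start: its peaks covered 2023, 2073 and 2050 bases on day 4, 2050, 2076 and 2068 on day 8, and 2083, 2066 and 2096 on day 21. The days overlapped, and the day 8 to day 4 ratio was 1.01. Mean covered bases were as high or higher on day 4 at Wdr37 (ratio 0.991) and in regions 13.3 kb from Mid1 (0.983) and 188 kb from Samd9l (0.990), and nearly equal 9.85 kb from Gm39469 (1.01).

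From day 8 to day 21 the largest ratio, 2.21, was at Col9a2, a collagen chain gene, but day 21 list 2 covered only 417 bases there against 1333 and 1379 in the others. A second MHC class I gene, H2-D1 (chr17:35262540-35264531), had 518, 461 and 556 covered bases on day 4, 1058, 1026 and 1114 on day 8, and 1451, 1610 and 1725 on day 21, with no overlap between days. H2-K1 and H2-D1 are close relatives, so reads could have been split between them. Then came Man1a, a mannosidase of the Golgi (1.45), Entpd1 (1.40) and Plxnc1, a semaphorin receptor (1.39). The largest declines were at Ppm1d, a phosphatase that damps the DNA damage response (ratio 0.644; 1437, 1394 and 1407 bases on day 8, 679, 1060 and 990 on day 21), Rai1 (0.732), Tatdn2 (0.735), the region of Bicral and Tbcc (0.750) and Zmym2 (0.762). The Rai1 region with this decline lay inside the gene. The region at its promoter, given above, had a ratio of 1.12 with overlap of days 8 and 21, and the 2 regions were not compared by a test.

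Most wide regions had a smaller core that peaks covered in every list. A median of 35.9% of a region's bases was in peaks of all 9 lists, and 70.5% was in all 6 lists of days 8 and 21. The bases in all 6 of those lists and in no day 4 list made up a median of 9.06%, at most 60.8%. No wide region held a base that was in all 3 day 4 lists and in no later list. The highest summit moved little between lists in many regions: the distance between the outermost of the 9 summits was under 100 bases in 179 regions and over 500 in 149, with a median of 181.

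Wide regions were not the strongest ones by fold enrichment. Strength was compared as a rank within each list, since the deposited fold enrichments are relative to each library's own background. A percentile of 100 is the strongest among the 15109 regions called in all 9 lists, and 477 wide regions could be ranked. By the fold enrichment at the highest summit over the local background, the median wide region stood at percentile 50.7, 49.2 and 46.3 in the day 4 lists, 25.5 to 27.2 on day 8 and 23.7 to 25.9 on day 21. By this measure 16 to 27 wide regions were in the top 10% on day 4 and 0 to 1 in each later list. The local background is itself drawn from the surrounding reads. It was 2.18 to 2.25 times the list's smallest background at the median wide region on day 4, 3.97 to 4.26 times on day 8 and 3.91 to 4.17 times on day 21, against 1.56 to 1.59, 2.61 to 2.73 and 2.50 to 2.61 in the other regions called in all 9 lists. By the summit pileup alone, the number of overlapping tags recovered from the deposited values, the median wide region stood at percentile 71.4 to 72.3, 68.6 to 70.1 and 68.8 to 71.9 on the 3 days. The upper quartile by pileup was 86.0 to 89.6 over the 9 lists, and wide regions in the top 10% by pileup were not counted. On days 8 and 21 the 2 measures thus placed the median wide region below and above the middle, while on day 4 it was near the middle by fold enrichment.

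**Figure D4:**
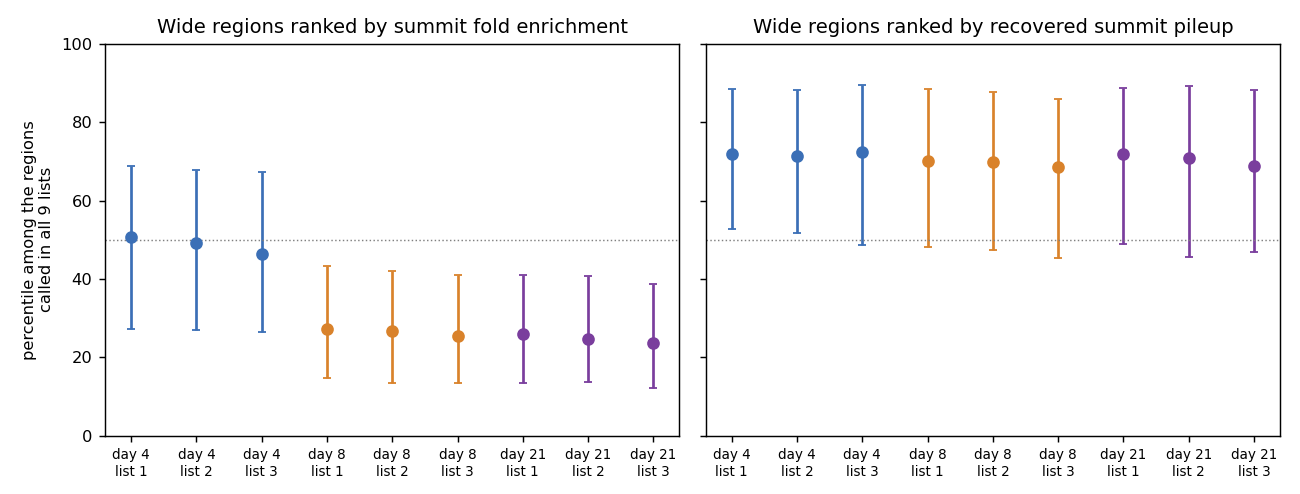
Percentile (vertical axis) of the 477 ranked wide regions in each list, as median (point) and quartiles (bar), by summit fold enrichment (left) and by recovered summit pileup (right); the dotted line is the 50th percentile. By fold enrichment the medians fall from 46.3 to 50.7 on day 4 to 23.7 to 27.2 later, while by pileup all 9 lie between 68.6 and 72.3.

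In the fit across all 15109 regions (limma on normal scores of the ranks, Benjamini-Hochberg over all regions), 218 of 477 wide regions ranked lower on day 8 than on day 4 and 0 higher. The background was 15.4% lower and 12.9% higher. On day 21 against day 4, which shares the day 4 lists, 251 were lower and 1 higher, beside 17.2% and 14.7%. Fold enrichment is over a local background drawn from surrounding reads, so its rank is not independent of the width that chose the regions. How far the choice set these counts was not tested. Between days 8 and 21 limma called 0 wide regions in either direction (background 0.0199% higher and 0% lower), with 18 (3.77%) at an unadjusted p under 0.05, beside 10.2% of all regions. Ranked by pileup, an alternative added after the values were seen, 51 of 477 (10.7%) were lower and 14 (2.94%) higher on day 8 than on day 4 (background 9.1% and 9.68%). For day 21 against day 8, 27 (5.66%) were lower and 44 (9.22%) higher (background 8.63% and 9.7%). For day 21 against day 4, 37 (7.76%) were lower and 27 (5.66%) higher (background 8.77% and 10%). Ranked by the deposited -log10 q, 78 (16.4%) were lower and 2 (0.419%) higher for day 8 against day 4 (background 7.29% and 8.41%). For day 21 against day 8 these were 2 and 3 (background 1.36% and 2.23%), and for day 21 against day 4 they were 69 (14.5%) and 6 (1.26%), beside 7.61% and 9.06%. The share of wide regions called lower on days 8 and 21 than on day 4 was thus above the background by fold enrichment and by -log10 q, and within 2 percentage points of it by pileup. The share called higher than on day 4 was below the background by all 3 measures. By fold enrichment, leaving out day 4 list 2 or 3 gave 2 wide regions that ranked higher on day 8, beside 12.7% of all regions. For day 21 against day 4 it gave 3 and 5, beside 13.9% and 14.1% of all regions. Without day 21 list 2 there were 2, beside 11.4%.

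At single genes the 2 measures could differ or move together. The promoter shared by Pdcd10, a partner of germinal center kinases, and Serpini1 (chr3:75555919-75557775) stood at percentile 96.2, 95.1 and 90.3 by fold enrichment on day 4, 41.4, 32.0 and 40.2 on day 8, and 37.0, 41.7 and 36.1 on day 21. The change was -1.88 ± 0.20 normal-score units (SE) from day 4 to day 8 (limma adjusted p = 7.44e-05). By pileup the region was at percentile 98.7 or above in all 9 lists. H2-K1 went from 87.1, 88.0 and 85.7 to 31.3, 20.2 and 21.2 by fold enrichment, a change of -1.83 ± 0.20 (limma adjusted p = 8.78e-05), and to 32.9, 22.6 and 23.3 on day 21. By pileup it was at percentile 99.9 or above in every list. The region of Zfp654 and the promoter of Cggbp1, which binds CGG repeats, was lower by fold enrichment on day 8 than on day 4 (-1.55 ± 0.21), as were Ypel5, part of a ubiquitin ligase complex (-1.54 ± 0.20), and Kmt2e, a SET domain protein (-1.48 ± 0.20). On day 21 against day 4 the list also held Arid4a, a subunit of a histone deacetylase complex (-1.78 ± 0.20), Ints6 of the integrator complex (-1.57 ± 0.20) and Fam117a (-1.52 ± 0.24). These 3 were also called lower by pileup on day 21 than on day 4: Arid4a by -0.44 ± 0.15, Ints6 by -0.50 ± 0.15 and Fam117a by -0.85 ± 0.17 (limma adjusted p = 0.0351, 0.0117 and 0.000319). Ranked by pileup, the day 8 minus day 4 difference had the other sign at H2-K1 (0.21), Cggbp1 (0.01) and Kmt2e (0.21), and none of the regions named above for that comparison was called. The 1 wide region that ranked higher on day 21 than on day 4 lay in Fbxw8, an F-box protein of a ubiquitin ligase (chr5:118081540-118083242). It stood at 45.7, 27.9 and 52.5 on day 4 and 78.0, 64.2 and 62.0 on day 21 (0.69 ± 0.22, limma adjusted p = 0.0288), and the call was lost without day 4 list 2 or day 21 list 1 and with only the 2 days fitted. By pileup the difference was 0.48 ± 0.18 (limma adjusted p = 0.0502).

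By pileup rank the regions that rose from day 4 to day 8 were led by the shared promoter of Setd3, an actin methyltransferase, and Ccnk, cyclin K (chr12:108178253-108180025). Their pileup percentile was 94.5, 93.0 and 94.7 on day 4, 99.7, 99.1 and 99.0 on day 8 and 97.4, 97.9 and 98.2 on day 21 (0.91 ± 0.14 for day 8 minus day 4, limma adjusted p = 8.97e-06). The next were in Fgf13, Hcfc1, a transcriptional coregulator, Mpc1, a subunit of the mitochondrial pyruvate carrier, and Orai1, the calcium channel opened after T cell receptor engagement. At Orai1 the pileup percentile was 63.3, 57.4 and 74.0 on day 4, 92.5, 84.2 and 79.9 on day 8, and 75.2, 75.6 and 73.2 on day 21 (0.70 ± 0.17 for day 8 minus day 4, limma adjusted p = 0.00255). At Dock2, the CG-poor promoter shown above, it was 60.8, 67.2 and 72.3, then 84.2, 87.8 and 84.5, then 75.2, 74.5 and 72.1, a rise of 0.62 ± 0.16 (limma adjusted p = 0.00444). By fold enrichment Dock2 fell over the same step by 0.69 ± 0.20 (limma adjusted p = 0.0169). The Setd3 and Ccnk region also went down by that measure, from percentile 73.5, 73.7 and 79.4 to 61.9, 61.9 and 55.2, without overlap. Orai1 went from 44.3, 30.3 and 53.6 to 37.8, 29.7 and 17.1, with overlap. Mpc1 went from 56.6, 70.5 and 52.0 to 67.8, 62.5 and 69.6, also with overlap. Fgf13 and Hcfc1 were not called (0.43 ± 0.29 and -0.21 ± 0.20, limma adjusted p = 0.285 and 0.446). The largest falls in pileup rank were in 4 regions outside protein-coding genes: chr4:3089506-3091548 (-2.15 ± 0.15), 80.5 kb from the nearest such gene, Vmn1r2, chr9:124256262-124258030 (-2.05 ± 0.16), 9.85 kb from Gm39469, chrX:170004123-170005924 (-1.42 ± 0.19), 13.3 kb from Mid1, and chr6:3182528-3184323 (-1.37 ± 0.29), 188 kb from Samd9l. As no list of problem regions was applied, the values of these 4 are uncertain. Without these 4, the widest region and those of Rn18s-rs5 and Gm20783, 213 of 470 wide regions were lower on day 8 than on day 4 by fold enrichment. By pileup 47 were lower. Of all regions, 15.4% and 9.1% were lower.

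From day 8 to day 21 the pileup rank rose most in Crim1, a transmembrane regulator of growth factors (chr17:78350821-78352862), from 43.0, 21.5 and 21.1 to 73.0, 59.8 and 79.7 (1.15 ± 0.20, limma adjusted p = 0.000128). Ctsc encodes cathepsin C, which activates granzymes, and its region rose from 92.5, 92.0 and 86.7 to 99.2, 99.2 and 98.3 (1.00 ± 0.15, limma adjusted p = 4.75e-05). Further rises were near Tagln2, upstream of the microRNA cluster of Mir17 to Mir92-1, in Mbd2, which binds methylated DNA, and in Tent5a, a poly(A) polymerase. The pileup rank fell most in Odf2 (-1.07 ± 0.18) and in the region of Tm9sf1 and Tssk4 (-0.86 ± 0.26), then in Kmt5b, a histone methyltransferase (-0.86 ± 0.17), Egln1, an oxygen-sensing hydroxylase (-0.76 ± 0.27), Nfkb2, a subunit of noncanonical NF-kB (-0.75 ± 0.16), and H2-D1 (-0.68 ± 0.16). At Nfkb2 the percentile was 78.7, 78.2 and 79.9 on day 8 and 50.5, 58.3 and 47.0 on day 21, without overlap. By fold enrichment none of these was called between days 8 and 21.

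Averaged over the 9 lists, the strongest wide regions by fold enrichment were at the promoters of Cnot4, a ubiquitin ligase of mRNA decay (mean percentile 90.2), Sap30, a subunit of the Sin3 corepressor complex (86.5), Rab28, a small GTPase (81.3), Cggbp1 (80.0) and Ubn2, of a histone chaperone complex (78.4). The weakest were the Rn18s-rs5 region (0.039), Zeb1 (0.525), Zmynd11, a reader of methylated histones (1.48), Pde4d, which breaks down cyclic AMP (2.38), and St6gal1, a sialyltransferase (2.42). At Zeb1 the low fold enrichment came with a pileup percentile of 12.2 to 35.8, and in the Rn18s-rs5 region with one of at least 99.6.

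Of 244 genes in 13 lists of T cell, other cell type and constitutive genes, 10 held a wide region (4.10%). This share lay between the 2.68% of 21631 protein-coding genes and the 5.20% of the 10933 that have a region called in all 9 lists. None of the 26 effector genes and none of the 30 genes of receptor signalling and activation had one. The memory and naive-like list had 3 of 24: Bach2 and Zeb1, which encode repressors that shape memory T cells, and Satb1, a chromatin organizer of T lineage cells. Satb1 was also the only one of 26 T lineage identity genes. Of 19 inhibitory receptor and exhaustion genes, Entpd1 had one, the gene of the ectonucleotidase CD39. Dusp1 and Tob1 were the 2 of 25 signalling brakes, Dock2 and Elmo1, its partner in Rac activation, the 2 of 22 trafficking genes, and Hsp90ab1, a chaperone, and Polr2a the 2 of 26 constitutive genes. None was found among 10 B cell, 12 myeloid, 14 stromal, endothelial and melanoma, 7 erythroid and 10 CD4 and regulatory T cell genes.

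These 10 regions had day 8 to day 4 ratios of covered bases from 1.35 to 13.1, with a median of 2.43 beside 1.70 for all wide regions. At Satb1 (chr17:51813035-51814755, inside the gene 18535 bases from its nearer end) the peaks covered 257, 0 and 0 bases on day 4. They covered 1030, 1015 and 1316 on day 8, and 401, 912 and 1538 on day 21, so day 21 spanned a wide range. At Entpd1 (chr19:40678567-40680334, inside the gene) they covered 300, 272 and 200 bases, then 1302, 700 and 1038, then 1629, 1235 and 1388. Each later day lay above day 4, and days 8 and 21 overlapped. At Zeb1 (chr18:5591169-5593504) the covered bases were 330, 275 and 606, then 1432, 1821 and 1763, then 1469, 1586 and 1627, and at Bach2 (chr4:32238280-32240182) 1058, 655 and 1301, then 1628, 1744 and 1727, then 1642, 1886 and 1804. The regions of Zeb1 and Bach2 held an end of the gene, which may be its start or its finish. In both regions the 2 later days overlapped each other and not day 4. At Dusp1 (chr17:26507242-26509344) the values were 490, 555 and 591, then 1586, 1608 and 1806, then 1780, 1093 and 1496. Elmo1 (chr13:20183937-20185773, inside the gene) had 762, 622 and 623 bases on day 4 and 1665 to 1824 later. Dock2 (chr11:34782429-34784300) had 640, 583 and 870 and later 1482 to 1664. Polr2a (chr11:69757817-69759660) had 900, 670 and 1274 and later 1564 to 1830. The ratio was lowest at Tob1 (1.35, chr11:94210090-94212044, 1177, 1455 and 1068 bases on day 4, later 1635 to 1839) and Hsp90ab1 (1.37, chr17:45572414-45574498, 1595, 1182 and 1686, later 1992 to 2085).

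Of the 10, all but Satb1 could be ranked. By fold enrichment 4 of these 9 were lower on day 8 than on day 4 by limma (background 15.4%): Dusp1 (-0.96 ± 0.22, adjusted p = 0.00607), Polr2a (-0.87 ± 0.22, adjusted p = 0.00838), Dock2 and Elmo1 (-0.68 ± 0.23, adjusted p = 0.0398). By pileup Dock2 alone was called on that step, as higher, and Dusp1 was lower on day 21 than on day 8 (-0.57 ± 0.18, limma adjusted p = 0.0216). At Entpd1 the differences between days 4 and 8 were -0.06 ± 0.28 by fold enrichment and -0.56 ± 0.24 by pileup (limma adjusted p = 0.893 and 0.0981). At Bach2 they were -0.08 ± 0.26 and 0.42 ± 0.19 (limma adjusted p = 0.837 and 0.106).

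**Figure D5:**
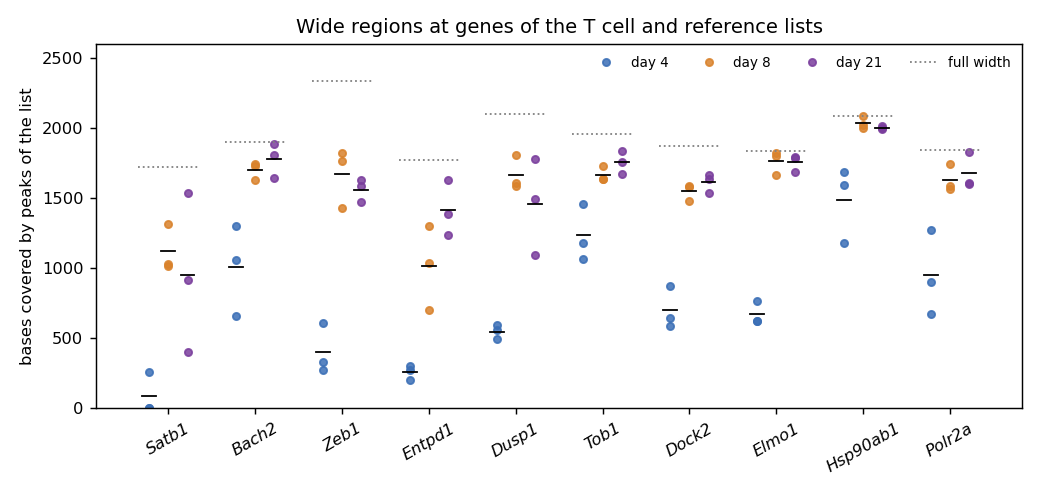
Bases covered by peaks (vertical axis) in each of 3 lists per day at the 10 wide regions of listed genes; horizontal bars are day means and dotted lines the full width of the region. At all 10 the later points lie above the day 4 points, and at Satb1 the day 21 points run from 401 to 1538.

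In or nearest to 9 genes there were 2 wide regions each, and no gene had more: Bicdl1, Crim1, Elf2, Itpk1, Mbd2, Mllt10, Plxnc1, Rai1 and Tagln2. The members of a pair could differ in strength. In Elf2, an ETS factor gene, the inner region stood at 80.8 to 88.1 by fold enrichment on day 4 and 33.9 to 57.1 later, and the region at the gene's end at 22.2 to 38.9 and 4.84 to 6.25. In Crim1 the inner region rose in pileup rank after day 8 as given above, while the one at the gene's end stood at 17.8 to 37.5 on day 8 and 41.3 to 51.9 on day 21, also without overlap.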

How the data were processed

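ATAC-seq peak lists of 9 libraries, 3 per day, were used. The submitters' processing notes name the build mm10 and the tools BWA (0.7.15), Picard, MACS2 and deepTools (2.0). What each tool did, its settings, read filters, a Tn5 shift and how reads with several matching places were handled: not given in the sources used here. In each deposited list, 1 per library, the authors' peak caller wrote for every peak a score, the fold enrichment of its summit and -log10 of p and q. These authors' values were used within a list alone, for description, ranks and filters. The wide regions, the gene lists and the comparisons were chosen with earlier results of these data known.

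Peaks outside chromosomes 1 to 19 and X were left out, which left 353295 of 353507, and these were merged at 1 shared base. The whole-number summit pileup and local background were recovered from the fold enrichment and -log10 p under the Poisson formula of MACS2 (whole for 99.995% to 100% of the peaks of a list, tolerance 0.001 in -log10 p). For the 15109 regions called in all 9 lists, ranks within each list were turned into normal scores and fitted with limma 3.58.1 (trend, robust, R 4.3.3), using all 9 lists, a coefficient for each day and 6 residual df. P-values were adjusted by Benjamini-Hochberg over all 15109 regions, threshold 0.05. The fit was tested on simulated data (15109 regions, day 8 against day 4). It recovered 62 of 200 regions shifted by 1 normal-score unit and 0 of 200 shifted by 0.5, with 0 false calls at either size. In the data far more regions were called for this comparison, 1955 higher and 2332 lower. The adjustment was thus stricter in the simulation, and its recovery does not carry over to the data. Ranking by pileup was added after the values were seen.

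RefSeq (GRCm38.p6) gave the positions of 21631 protein-coding genes, and start sites and promoter windows came from its promoter table, which does not hold every gene. A wide region belonged to each gene it overlapped, otherwise to the nearest within 100 kb. An end of a gene was either of its boundaries, start or finish. All 244 list genes matched. The named regions were the 10 widest, those at list genes, up to 6 per direction with the largest rank difference in each comparison among called regions whose lists do not overlap, the 3 longest single peaks, and those in the fewest lists or over 100 kb from a gene. A region that this rule names is not reported here. Also named were the 5 largest and smallest ratios of covered bases and the 5 highest and lowest mean ranks. No gene held 3 wide regions, so the genes with 2 were named, which was decided after seeing the values. Other steps ran in Python 3.11.15 with scipy 1.17.1, numpy 2.4.6, pandas 2.3.3 and, for plots, matplotlib 3.10.9. Alternatives were another ranking measure or scale, stricter peaks (q of 0.001 or less), another overlap, the strongest 19499 peaks of each list, a replicate block and leaving out each list.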

Additional observations from a re-analysis of the deposited data

How the results depend on the processing

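Which regions are the widest depended little on peak calling: 494 of the 500 were kept with peaks at q of 0.001 or less, 470 when merging needed 100 shared bases, 442 to 500 without 1 list, and 400 when the longest single peak was taken for the width. With the strongest 19499 peaks of each list, 8 wide regions had fewer covered bases in all day 8 than in all day 4 lists. For day 21 against day 4 there were also 8. With all peaks and 1 list left out, these counts were 0 for day 8 and 0 to 1 for day 21. In that setting 78 to 110 wide regions had more and 43 to 85 fewer covered bases on day 21 than on day 8. Counts over all regions were not made at these settings.

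The ranking measure moved the rank counts most. Ranked by -log10 q, the wide regions called were 78 lower and 2 higher for day 8 minus day 4, 2 lower and 3 higher for day 21 minus day 8, and 69 lower and 6 higher for day 21 minus day 4. Ranked by pileup they were 51 and 14, 27 and 44, and 37 and 27. The shares of all regions for both rankings are given above. Peaks at q of 0.001 or less gave 1 wide region higher on day 8 than on day 4 and 3 higher on day 21 than on day 4. Of all regions, 13.1% and 14.7% were higher in that setting. The latter count was 2 with limma without trend and robust (14.7% of all regions) and 0 with only the 2 days fitted (12.5%). Without 1 list it was 1 to 5, beside 10.2% to 14.1% of all regions. The former was 0 to 2 without 1 list, beside 8.81% to 12.7%. Counts of lower regions ran from 148 to 220 (day 8) and 178 to 252 (day 21) without 1 list. The shares of all regions ran from 9.68% to 14.9% and from 11.4% to 16.7%. By -log10 q the day 8 minus day 4 difference of H2-K1 was 0.028, above 0. By pileup, differences above 0 were found for day 8 minus day 4 at H2-K1 (0.21), Zfp654 and Cggbp1 (0.0087) and Kmt2e (0.21), and for day 21 minus day 4 at Pdcd10 and Serpini1 (0.0057), H2-K1 (0.21) and Zfp654 and Cggbp1 (0.32). The cause was not tested.

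Replicate numbers did not pair the lists: deviations of same-numbered lists correlated at -0.0022 to 0.0312 over regions. Blocking by replicate number gave 208, 0 and 244 lower wide regions in the 3 comparisons, beside 14.7%, 0% and 16.8% of all regions. Those higher were 0, 0 and 4, beside 13.1%, 0.00662% and 15%.

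Read totals are not in the lists. Day 8 and 21 libraries had higher summits over background than day 4 libraries, so a longer covered stretch and a better signal cannot be told apart here. In the simulated fold enrichment ranks of days 4 and 8, none of 200 shifts of 0.5 normal-score units was recovered. Far more regions were called in the data than were shifted there, so this does not give the share missed in the data.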

Other observations

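Among the wide regions were 12 of the 75 genes whose symbols begin with Kdm, Kmt, Setd, Hdac, Ncor, Ncoa, Arid or Chd (16.0%, beside 2.68% of all protein-coding genes). These are families of chromatin enzymes and cofactors. The 12 were 17.1% of the 70 with a region called in all 9 lists, beside 5.20% of all genes with such a region. These families were grouped after the names had been seen, so the shares are a description. The 12 were Arid4a, Chd1, Chd9, Kdm7a, Kmt2c, Kmt2e, Kmt5b, Ncoa2, Ncor1, Setd1b, Setd3 and Setd7. Their ratios of covered bases, day 8 over day 4, ran from 1.20 at Kmt2e to 3.64 at Kmt5b, with a median of 1.54 beside 1.70 for all wide regions. By fold enrichment 5 of the 12 were lower on day 8 than on day 4 in limma and 0 higher, beside 218 and 0 of the 477 ranked wide regions and 15.4% and 12.9% of all regions. By pileup 0 were lower and 1 higher, beside 51 and 14 of the 477 and 9.1% and 9.68% of all. At Chd1, a chromatin remodeler, the peaks covered a mean of 1153, 1941 and 2132 bases on days 4, 8 and 21. Of 73 histone genes picked by their symbols, which were not limited to replication histones, 6 lay in 3 wide regions (8.22%, beside 2.68% of all protein-coding genes). H2ac20, H2ac21 and H2bc21 were in 1 (chr3:96219239-96221694, 2456 bases), H1f4 and H2bc6 in another, and H1f3 in the third. These genes have near-identical copies, so their values are uncertain. Of 1110 olfactory receptor genes none had a wide region, but only 11 had a region called in all 9 lists. Of 97 Rpl and Rps genes 2 had one (2.06%), near the 2.68% of all protein-coding genes. The share was 2.78% for Zfp or Zbtb symbols, 2.67% for Slc, 7.27% for Usp and 6.45% for Map2k, Map3k or Map4k.

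Some wide regions lay outside protein-coding genes but at RNA genes. The region chr14:115040181-115042640 (2460 bases) ended 1031 bases before Mir17, the first hairpin of the cluster that runs to Mir92-1, a microRNA cluster that supports T cell expansion. Its pileup percentile was 77.1, 86.3 and 77.2 on day 4, 60.6, 40.9 and 63.7 on day 8, and 80.3, 87.4 and 82.2 on day 21. By limma on the pileup ranks it was lower on day 8 than on day 4 (-0.73 ± 0.17, adjusted p = 0.00201) and higher on day 21 than on day 8 (0.84 ± 0.17, adjusted p = 0.000794). The region chr9:78175277-78177202 held Rn7sk, the RNA that holds back the elongation factor P-TEFb, and 4 others held tRNA genes. Hairpins of 7 microRNAs lay inside wide regions, among them Mir1904 in the Pde4d region.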
